A study of Mus musculus with 22 samples.

Results

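The imprinted genes described here were a list of 10: Igf2, Mest, Peg10, Snrpn, Dlk1 and Plagl1, which are expressed from the paternal allele, and Igf2r, Cdkn1c, Grb10 and Phlda2, which are expressed from the maternal allele. Probes were taken when the array annotation gave 1 of these symbols and the deposited detection p-value was under 0.05 on at least 3 of the 22 arrays. The 10 genes had 16 probes, of which 12 passed this rule, and 8 of the 10 genes were therefore measured, out of 9345 genes tested on the arrays. Dlk1 and Plagl1 did not pass, with detection on 0 of 22 arrays. Of the 8 measured genes, Mest had 3 passing probes, Igf2r and Snrpn had 2 each, and the other 5 had 1.

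Genomic imprinting is the expression of a gene from only the maternal or only the paternal chromosome, set by DNA methylation laid down in the egg or the sperm and kept through the demethylation of the early embryo. Many imprinted genes act on growth of the fetus and placenta, paternally expressed ones often promoting it and maternally expressed ones often restraining it. The medium in which a mouse embryo is grown before implantation is known to be able to disturb imprinted loci. The parental origin given for each gene is the one known from mouse tissues as background: the arrays measured the sum of both alleles, and allelic expression in these embryos was not measured.

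The study hybridized RNA of day 3.5 mouse blastocysts to 22 one-colour bead arrays. Embryos were of the B6 strain, an inbred line, or the CD1 strain, an outbred stock, and had either developed in vivo or been grown in KSOM, HTF or ISM1, which are culture media for preimplantation embryos. The B6 in vivo, B6 KSOM, B6 HTF, B6 ISM1, CD1 in vivo, CD1 HTF and CD1 ISM1 groups had 3 arrays each, called biological replicates in the labels, and CD1 KSOM had 1. No transgene, deletion or drug is named for any group, and the number of embryos behind an array is not given in the sources used here.

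The median raw intensity of an array ranged from 90.6 to 154 and the number of probes with a detection p under 0.05 from 8964 to 11147. Arrays of a group were least alike for CD1 in vivo, with a mean correlation across genes of 0.861, and most alike for B6 HTF, with 0.969. Blastocyst markers were present: Cdx2, Krt8 and Gata3 of the trophectoderm, Pou5f1 and Nanog of the inner cell mass and Gata6 of the primitive endoderm were detected on 22 arrays, Sox2 on 20, Sox17 on 18 and Gata4 on 9. Of markers of other cells, 0 of 8 cumulus cell genes and 2 of 8 blood and immune genes passed the detection rule, as did 5 of 8 reproductive tract epithelium genes. All levels below are log2 intensities after background correction and quantile normalization. A probe's level depends on its own sequence as well as on the transcript, so levels are compared between arrays for one probe and never between genes.

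No imprinted gene was called different between any groups. In 18 comparisons of media and strains the 8 genes gave 144 tests, of which 0 had a Benjamini-Hochberg adjusted p under 0.05 in limma, adjusted over all 9345 genes, with a smallest value of 0.296. At an unadjusted p under 0.05 there were 6 tests, 5 of Mest and 1 of Igf2r, where 5.33% of all gene tests in these comparisons passed that level. Few genes of any kind were called: none (0%) for B6 ISM1 or B6 KSOM against in vivo, B6 KSOM or B6 HTF against ISM1, CD1 ISM1 against in vivo, ISM1 against in vivo over both strains, or the strain differences in the HTF and ISM1 effects. The share was 0.0107% for B6 HTF against in vivo, B6 KSOM against HTF, CD1 HTF against in vivo, and CD1 against B6 in vivo, in HTF and in ISM1. It was 0.0428% for CD1 HTF against ISM1, 0.0963% for HTF against ISM1 over both strains, 0.203% for HTF against in vivo over both strains and 0.235% for CD1 against B6 over HTF, ISM1 and in vivo. Comparisons of different media with in vivo growth in one strain share the same 3 in vivo arrays, so their values are given side by side and not correlated.

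Mest read higher in HTF than in ISM1 in both strains, without overlap on 2 of its 3 probes, which read the same arrays. The difference was not called (adjusted p of 0.471 over both strains in limma) and was picked out from the 144 tests. The data also show large spread between arrays of the same group in Cdkn1c, Phlda2, Grb10 and Igf2, and an opposite course of Cdkn1c and Igf2 over the arrays. The brighter Snrpn probe was spread as well, most in B6 in vivo, with a range of 3.35. Levels of Mest and Igf2r, the genes with an unadjusted p under 0.05, are given first with the promoter windows of these genes.

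**Figure D1:**
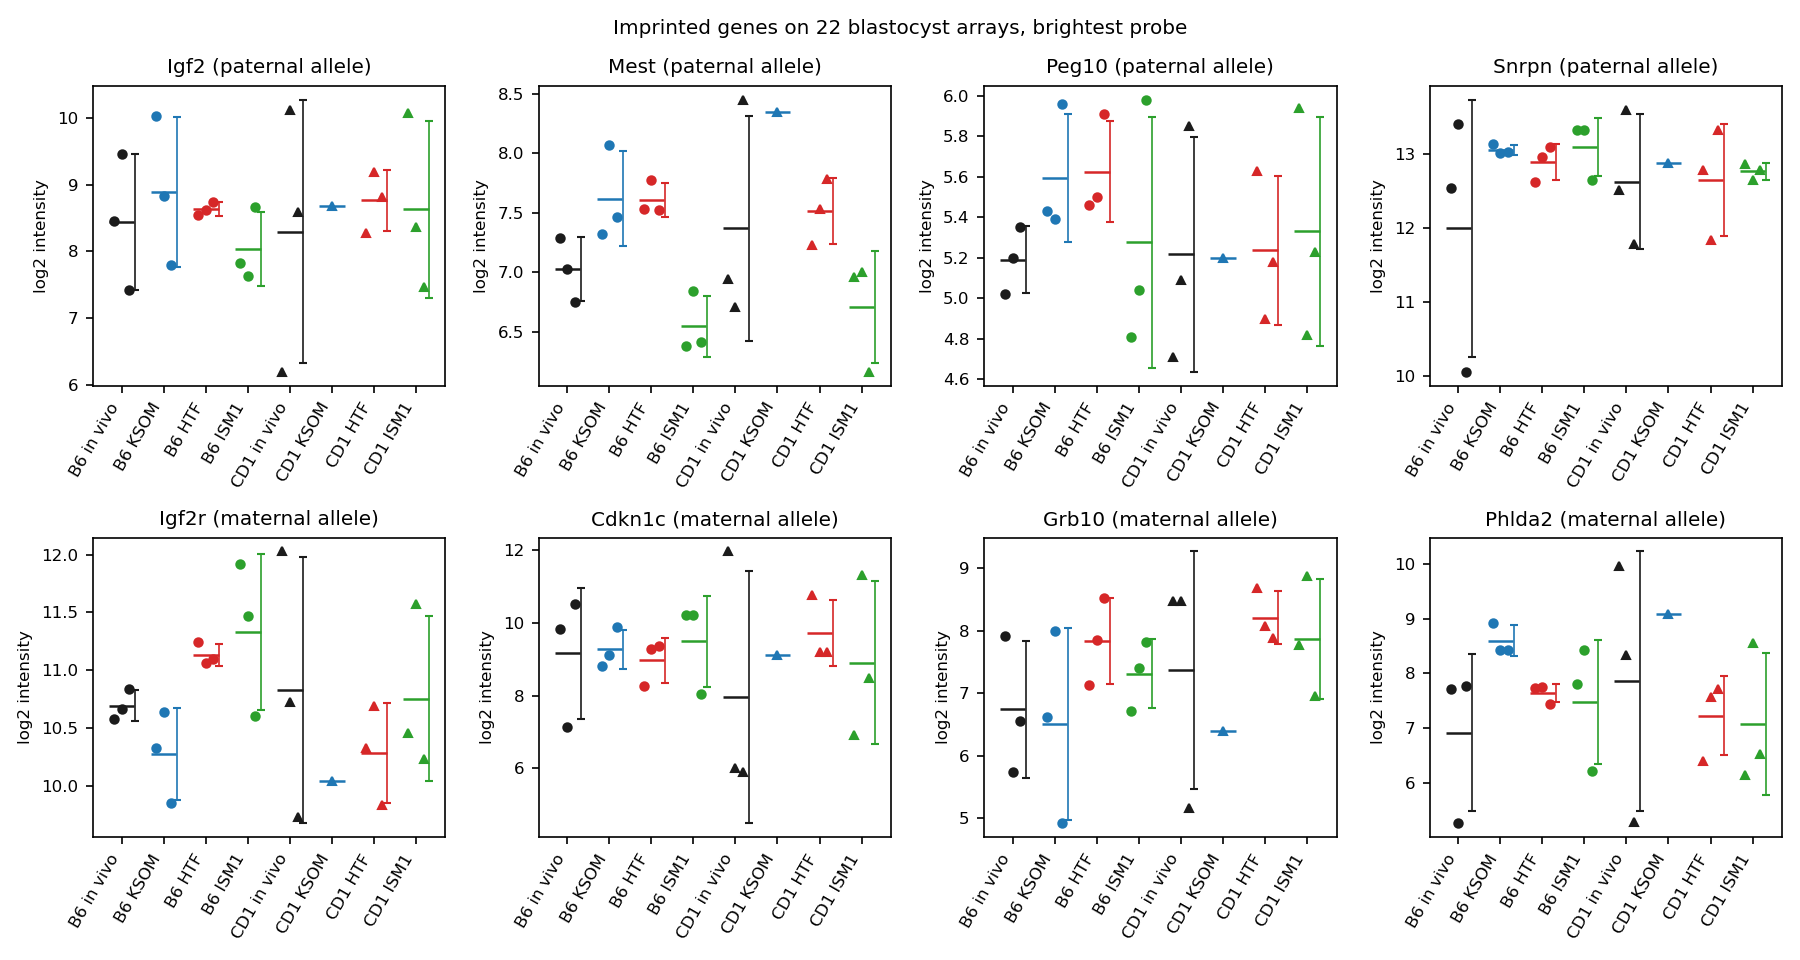
Log2 intensity of the brightest probe of each of the 8 measured imprinted genes (vertical axis, own scale in each panel) in the 8 groups (horizontal axis). Points are arrays, circles B6 and triangles CD1, horizontal bars are group means and whiskers 1 SD. HTF and ISM1 arrays of Mest do not overlap in either strain, and the CD1 in vivo arrays of Cdkn1c span 5.91 to 11.98.

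Mest (Entrez 17294, chromosome 6) encodes a protein with the fold of alpha/beta hydrolases and is expressed from the paternal allele. It was detected on 22 arrays by its brightest probe, on 21 by the second and on 17 by the dimmest. RefSeq lists several starts of the gene. Windows of 300 bases, 250 before and 50 after a start, are shown for 2 of them, which lie apart on the plus strand of chromosome 6, since their CG content differs and imprints are written at CG positions. Capitals mark the letters TGCCGC or, on the opposite strand, GCGGCA, the motif that the imprint-maintaining protein ZFP57 recognizes when methylated. Sequences are from RefSeq, build GRCm38.p6, 5′ to 3′ on the gene's strand.
Mest downstream start, chr6:30737800-30738099, plus strand: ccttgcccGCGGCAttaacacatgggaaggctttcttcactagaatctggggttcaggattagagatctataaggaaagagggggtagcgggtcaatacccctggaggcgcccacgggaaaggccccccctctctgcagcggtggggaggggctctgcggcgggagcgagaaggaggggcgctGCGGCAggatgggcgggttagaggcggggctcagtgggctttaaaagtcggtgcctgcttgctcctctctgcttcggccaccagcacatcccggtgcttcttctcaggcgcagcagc
Mest upstream start, chr6:30733256-30733555, plus strand: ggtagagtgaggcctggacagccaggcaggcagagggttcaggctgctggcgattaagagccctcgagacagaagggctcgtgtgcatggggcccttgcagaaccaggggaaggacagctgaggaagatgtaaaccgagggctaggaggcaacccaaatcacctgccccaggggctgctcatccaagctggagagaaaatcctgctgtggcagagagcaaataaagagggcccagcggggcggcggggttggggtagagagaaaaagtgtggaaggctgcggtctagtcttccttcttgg
The downstream window holds 17 CG dinucleotides and 2 matches to the motif, both as GCGGCA, and the upstream window 8 and 0. Of the 32851 windows of this length that were searched, 11.6% hold a match on either strand, and the median CG count is 7. The search left out a chromosome that carries none of the 10 genes. A match describes the letters and does not show binding, and no methylation was measured. Among the 10 genes, 8 had windows in the table, 17 windows in all, and 6 windows of 5 genes held a match. These counts include the downstream Mest window above and an overlapping one from chr6:30737803 with the same matches.

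On its brightest probe Mest read 7.53, 7.77 and 7.52 on the B6 HTF arrays and 6.38, 6.84 and 6.41 on the B6 ISM1 arrays. It read 7.23, 7.53 and 7.78 on the CD1 HTF arrays and 6.96, 7.0 and 6.16 on the CD1 ISM1 arrays. In each strain every HTF array lay above every ISM1 array. Mest was higher in HTF than in ISM1 by 1.06 ± 0.38 (log2 difference ± SE, n = 3 each) in B6, which is 2.09-fold, with an unadjusted p of 0.0125 and an adjusted p of 1 in limma. In CD1 the difference was 0.81 ± 0.38, 1.75-fold, with an unadjusted p of 0.0491 and an adjusted p of 0.999 in limma. Averaged over the strains it was 0.93 ± 0.27, 1.91-fold, with an unadjusted p of 0.00287 and an adjusted p of 0.471 in limma. With arrays weighted by their quality in the fit the difference was 0.91, with an adjusted p of 0.0196 in limma, and 315 genes were called. For this comparison 5.41% of all genes had an unadjusted p under 0.05, and 1.19% had all HTF arrays above all ISM1 arrays in both strains.

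The 5 measured reproductive tract markers averaged 6.81 to 6.99 on B6 HTF and 6.42 to 6.86 on B6 ISM1 arrays, and 6.70 to 6.95 and 6.36 to 7.27 in CD1, and their part in the Mest difference was not tested.

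The remaining groups of Mest lay partly between these. The B6 in vivo arrays read 7.29, 7.03 and 6.75 and the B6 KSOM arrays 7.32, 8.07 and 7.46. In B6 the in vivo arrays overlapped ISM1 narrowly and lay below both KSOM and HTF without overlap. B6 KSOM exceeded B6 ISM1 by 1.07 ± 0.38, 2.11-fold, with an unadjusted p of 0.0117 and an adjusted p of 0.296 in limma. The CD1 in vivo arrays read 6.94, 6.71 and 8.45, and the single CD1 KSOM array read 8.35. Replicate 3 of CD1 in vivo was the highest of the 22 arrays and the other 2 lay within the range of the ISM1 arrays. Against in vivo over both strains, Mest differed by -0.57 ± 0.27 in ISM1, with an unadjusted p of 0.0494 and an adjusted p of 0.998 in limma, and by 0.36 ± 0.27 in HTF, with an adjusted p of 0.81 in limma. Below the single CD1 KSOM array, group means of Mest ran from B6 KSOM (7.62 ± 0.40, SD, n = 3) through B6 HTF (7.60 ± 0.14), CD1 HTF (7.51 ± 0.28), CD1 in vivo (7.37 ± 0.94), B6 in vivo (7.02 ± 0.27) and CD1 ISM1 (6.71 ± 0.47) to B6 ISM1 (6.54 ± 0.26), and each pair of neighbours overlapped. The strain difference of the HTF effect was -0.44 ± 0.54 and that of the ISM1 effect -0.18 ± 0.54, with adjusted p of 1 and 0.999 in limma.

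For HTF and for B6 KSOM against ISM1 the 3 Mest probes were alike in direction. For HTF over both strains the difference was smaller on the dimmer probes, and for B6 KSOM it was of similar size on all 3. The second probe read 6.81, 7.08 and 6.96 in B6 HTF and 5.73, 6.22 and 6.22 in B6 ISM1. In CD1 it read 6.81, 7.24 and 7.04 in HTF and 6.78, 6.41 and 6.19 in ISM1. HTF again lay above ISM1 without overlap in both strains, though by a small gap in CD1. Over both strains the second probe was higher in HTF by 0.73 ± 0.32, with an unadjusted p of 0.0329 and an adjusted p of 0.853 in limma over all kept probes. The dimmest probe differed by 0.45 ± 0.26, with an adjusted p of 1 in limma, and its groups overlapped. For HTF against in vivo over both strains the 3 probes gave 0.36, 0.34 and -0.03, in order of brightness. For B6 KSOM against ISM1 they gave 1.07, 1.13 and 0.91. Over the 22 arrays the brightest probe correlated with the second at r = 0.82 (rho = 0.83) and with the dimmest at r = 0.59 (rho = 0.60), and the second with the dimmest at r = 0.69 (rho = 0.72). The permutation p of these r values were 1e-05, the smallest that 100000 permutations can give, 0.00423 and 0.00043, and 5e-05, 0.00529 and 0.000717 when adjusted over the 5 probe pairs compared.

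**Figure D2:**
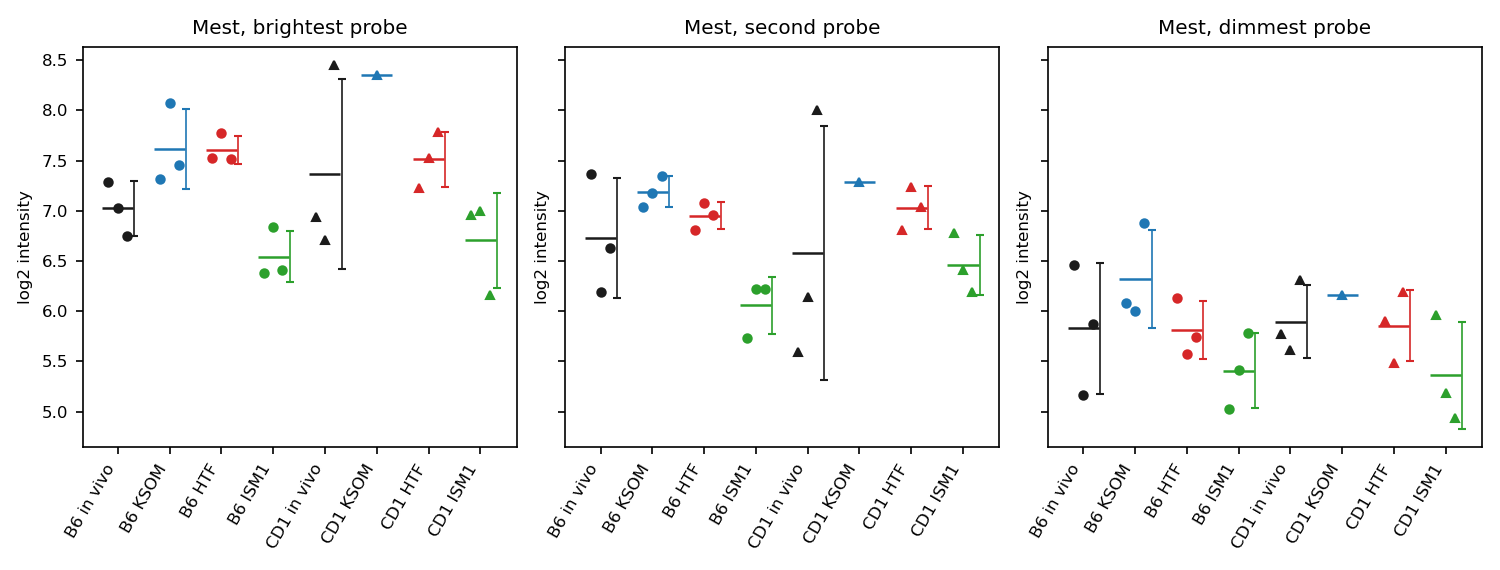
Log2 intensity of the 3 Mest probes (vertical axis, shared) in the 8 groups (horizontal axis). Points are arrays, bars group means and whiskers 1 SD. On the brightest and the second probe each HTF array lies above each ISM1 array of its strain, and on the dimmest the groups overlap.

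Igf2r (Entrez 16004, chromosome 17) encodes the receptor that carries IGF2 to the lysosome for breakdown, and is expressed from the maternal allele. In mouse, its imprint lies within the gene and not at the promoter of the coding transcript, whose window is shown because Igf2r was the other gene with an unadjusted p under 0.05.
Igf2r, chr17:12769657-12769956, minus strand: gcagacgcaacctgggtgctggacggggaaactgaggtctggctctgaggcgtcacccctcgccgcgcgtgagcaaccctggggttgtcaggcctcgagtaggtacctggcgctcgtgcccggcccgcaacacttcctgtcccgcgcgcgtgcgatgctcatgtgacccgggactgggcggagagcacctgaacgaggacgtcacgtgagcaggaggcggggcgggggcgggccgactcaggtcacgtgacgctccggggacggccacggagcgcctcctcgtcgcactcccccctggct
The window holds 34 CG dinucleotides, as many as or more than 93.0% of the windows searched, and 0 matches to the motif above.

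The brighter Igf2r probe was detected on 22 arrays. It read 10.33, 10.64 and 9.85 in B6 KSOM and 11.92, 11.47 and 10.60 in B6 ISM1. It read 11.24, 11.06 and 11.10 in B6 HTF and 10.58, 10.66 and 10.84 in B6 in vivo. B6 HTF lay above both B6 in vivo and B6 KSOM without overlap, and B6 ISM1 overlapped all of these. B6 KSOM differed from B6 ISM1 by -1.06 ± 0.48, with an unadjusted p of 0.0426 and an adjusted p of 0.384 in limma. It differed from B6 HTF by -0.86 ± 0.48, with an adjusted p of 0.587 in limma. B6 ISM1 exceeded B6 in vivo by 0.64 ± 0.48, with an adjusted p of 0.999 in limma, and by 0.90 with an adjusted p of 0.0333 when arrays were weighted by quality, a fit that called 1329 genes. In CD1 the arrays read 12.03, 10.72 and 9.73 in vivo, 10.33, 10.69 and 9.83 in HTF, 10.46, 11.57 and 10.23 in ISM1 and 10.04 on the KSOM array. The CD1 groups overlapped, and CD1 HTF lay below B6 HTF without overlap, by -0.85 ± 0.48 (adjusted p of 1 in limma). Group means ran from 11.33 ± 0.67 in B6 ISM1 and 11.13 ± 0.10 in B6 HTF through CD1 in vivo, CD1 ISM1, B6 in vivo and CD1 HTF to 10.27 ± 0.40 in B6 KSOM, and all neighbours in this order overlapped.

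The dimmer Igf2r probe followed the brighter one, with r = 0.74 and rho = 0.86 over 22 arrays (permutation p of 0.0001 and 1e-05, and 0.00025 and 5e-05 adjusted over the 5 probe pairs). Within B6 r was 0.92 (n = 12) and within CD1 0.76 (n = 10). The strains differed more on it than on the brighter probe. It ranged from 8.02 to 9.81 on the 12 B6 arrays and from 5.24 to 9.97 on the 10 CD1 arrays, while the brighter probe ranged from 9.85 to 11.92 and from 9.73 to 12.03. On 6 of the 10 CD1 arrays it read lower than on any B6 array. It was not detected on the CD1 KSOM array, and the lowest readings of the other CD1 groups were 5.92 in vivo, 5.79 in HTF and 6.09 in ISM1. Over HTF, ISM1 and in vivo CD1 was below B6 by -1.42 ± 0.49 on the dimmer probe, with an unadjusted p of 0.00987 and an adjusted p of 0.313 in limma. On the brighter probe the same difference was -0.43 ± 0.28, with an adjusted p of 0.626 in limma.

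Igf2 (Entrez 16002, chromosome 7) encodes insulin-like growth factor II, the paternally expressed growth factor that binds the receptor above. Its 1 probe was detected on 22 arrays. It read 8.46, 9.46 and 7.42 in B6 in vivo, 10.04, 8.84 and 7.80 in KSOM, 8.55, 8.62 and 8.75 in HTF and 7.82, 7.63 and 8.67 in ISM1. It read 6.19, 10.12 and 8.59 in CD1 in vivo, 8.28, 9.20 and 8.82 in HTF, 10.08, 8.37 and 7.46 in ISM1 and 8.69 on the KSOM array. The HTF arrays were the most alike in both strains and the CD1 in vivo arrays the most spread, and all groups of 3 arrays overlapped. Group means lay between 8.04 ± 0.56 in B6 ISM1 and 8.90 ± 1.12 in B6 KSOM. Over both strains Igf2 differed from in vivo by 0.33 ± 0.58 in HTF and by -0.04 ± 0.58 in ISM1, with adjusted p of 0.948 and 0.998 in limma. Without CD1 in vivo replicate 1, the array with the lowest Igf2, the HTF difference was -0.20.

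Grb10 (Entrez 14783, chromosome 11) encodes an adaptor that dampens signalling from the insulin and IGF receptors, and is expressed from the maternal allele outside neurons. Its 1 probe was detected on 20 arrays, all but B6 KSOM replicate 3 and CD1 in vivo replicate 3. It read 7.92, 5.75 and 6.56 in B6 in vivo, 6.63, 7.99 and 4.92 in KSOM, 7.14, 7.85 and 8.52 in HTF and 6.72, 7.41 and 7.82 in ISM1. It read 8.47, 8.47 and 5.17 in CD1 in vivo, 8.69, 8.07 and 7.88 in HTF, 7.78, 8.88 and 6.96 in ISM1 and 6.4 on the KSOM array. The lowest readings came on single arrays of the in vivo and KSOM groups, and the HTF arrays were high in both strains, yet all groups compared with each other overlapped. Group means ran from 8.21 ± 0.42 in CD1 HTF through CD1 ISM1, B6 HTF, CD1 in vivo, B6 ISM1 and B6 in vivo to 6.51 ± 1.54 in B6 KSOM, and all neighbours overlapped. HTF exceeded in vivo by 0.97 ± 0.60 over both strains, with an adjusted p of 0.742 in limma. Without CD1 in vivo replicate 3, the array with the lowest CD1 reading, it was 0.42. The value was 1.10 ± 0.85 in B6 and 0.84 ± 0.85 in CD1.

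Cdkn1c (Entrez 12577, chromosome 7) encodes p57, an inhibitor of cyclin-dependent kinases, and is expressed from the maternal allele. Its 1 probe was detected on 22 arrays. It read 9.84, 7.13 and 10.52 in B6 in vivo, 8.83, 9.13 and 9.88 in KSOM, 8.27, 9.28 and 9.36 in HTF and 10.22, 10.21 and 8.05 in ISM1. It read 11.98, 6.0 and 5.91 in CD1 in vivo, 10.77, 9.19 and 9.21 in HTF, 6.92, 11.33 and 8.48 in ISM1 and 9.12 on the KSOM array. Within CD1 in vivo and CD1 ISM1 1 array was far above the others, and HTF and KSOM arrays were closer together. All groups of 3 arrays overlapped, and means lay between 7.97 ± 3.48 for CD1 in vivo and 9.72 ± 0.91 for CD1 HTF. HTF differed from in vivo by 0.78 ± 0.95 over both strains, with an adjusted p of 0.911 in limma, and by 1.76 ± 1.35 in CD1 and -0.20 ± 1.35 in B6. The value over both strains rested on single in vivo arrays: it was 1.78 without CD1 in vivo replicate 1, 0.29 and 0.27 without replicates 2 and 3 of that group, and 0.27 without B6 in vivo replicate 2. It was 0.52 without CD1 HTF replicate 1.

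Phlda2 (Entrez 22113, chromosome 7) encodes a pleckstrin homology domain protein that restrains growth of the placenta, and is expressed from the maternal allele. Its 1 probe was detected on 20 arrays, all but B6 in vivo replicate 2 and CD1 in vivo replicate 3. It read 8.92, 8.43 and 8.43 in B6 KSOM, 7.71, 5.27 and 7.78 in vivo, 7.73, 7.75 and 7.45 in HTF and 7.80, 8.42 and 6.22 in ISM1. In B6 the KSOM arrays lay above those of the other 3 groups without overlap, though the highest ISM1 array, at 8.42, lay just below the lowest of KSOM, at 8.43. KSOM exceeded in vivo by 1.67 ± 0.94, 3.19-fold, with an unadjusted p of 0.0924 and an adjusted p of 0.834 in limma. The size of this difference rested partly on in vivo replicate 2, at 5.27 and not detected, while the other B6 in vivo arrays read 7.71 and 7.78. KSOM exceeded HTF by 0.95 ± 0.94 and ISM1 by 1.12 ± 0.94, with adjusted p of 0.783 and 0.685 in limma. In CD1 it read 9.95, 8.34 and 5.29 in vivo, 6.4, 7.57 and 7.71 in HTF and 6.15, 8.55 and 6.54 in ISM1. These groups overlapped, and the CD1 KSOM array, at 9.09, lay within the in vivo range. Group means ran from 8.59 ± 0.28 in B6 KSOM through CD1 in vivo, B6 HTF, B6 ISM1, CD1 HTF and CD1 ISM1 to 6.92 ± 1.43 in B6 in vivo, and all neighbours overlapped.

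Snrpn (Entrez 20646, chromosome 7) encodes SmN, a core protein of spliceosomal particles, and is expressed from the paternal allele. Its brighter probe was detected on 22 arrays and read 12.54, 13.40 and 10.06 in B6 in vivo, 13.13, 13.01 and 13.03 in KSOM, 12.62, 12.96 and 13.10 in HTF and 13.33, 13.32 and 12.65 in ISM1. It read 12.51, 13.59 and 11.78 in CD1 in vivo, 12.79, 11.84 and 13.32 in HTF, 12.87, 12.65 and 12.78 in ISM1 and 12.88 on the KSOM array. B6 in vivo replicate 3 was the lowest of all arrays, and the groups compared with each other overlapped. Group means lay between 13.10 ± 0.39 in B6 ISM1 and 12.00 ± 1.74 in B6 in vivo. Over both strains Snrpn differed from in vivo by 0.62 ± 0.44 in ISM1 and by 0.46 ± 0.44 in HTF, with adjusted p of 0.998 and 0.89 in limma. Without B6 in vivo replicate 3 the HTF difference was -0.03.

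The 2 Snrpn probes did not follow each other. The dimmer probe, detected on 20 arrays, ranged from 5.11 to 7.79 and was highest on B6 in vivo replicate 3, where the brighter probe was lowest. Over 22 arrays r was -0.37 and rho 0.02, with permutation p of 0.0879 and 0.918, the same after adjustment over the 5 probe pairs. Without B6 in vivo replicate 3 and CD1 in vivo replicate 3 r was 0.16. Against in vivo over both strains the dimmer probe differed by 0.02 ± 0.43 in HTF and by -0.11 ± 0.43 in ISM1.

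**Figure D3:**
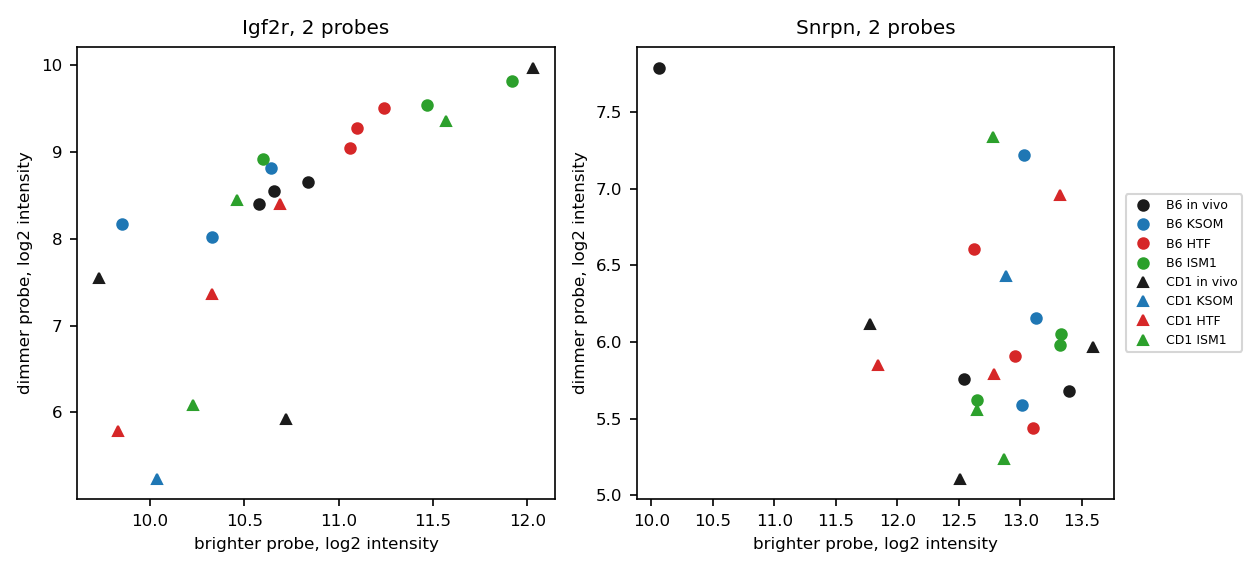
Log2 intensity of the dimmer probe (vertical axis) against the brighter probe (horizontal axis) of Igf2r and Snrpn. Each point is 1 of 22 arrays, circles B6 and triangles CD1, coloured by medium. The Igf2r probes run together (r = 0.74), with several CD1 arrays low on the dimmer probe, and the Snrpn probes do not (r = -0.37), with B6 in vivo replicate 3 at the upper left.

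Peg10 (Entrez 170676, chromosome 6), a paternally expressed gene derived from a retrotransposon and needed for the mouse placenta, was near the limit of detection. It was detected on 11 of 22 arrays, which were 3 of 3 in B6 KSOM and in B6 HTF, 1 of 3 in each of the other 5 groups of 3, and not the CD1 KSOM array. Its level ranged from 4.71 to 5.98. The B6 KSOM arrays read 5.43, 5.39 and 5.96 and the B6 HTF arrays 5.46, 5.50 and 5.91, above B6 in vivo at 5.02, 5.20 and 5.35 without overlap. The differences from in vivo were 0.41 ± 0.37 and 0.43 ± 0.37, with adjusted p of 0.936 and 0.999 in limma. In the other groups means lay between 5.19 and 5.33.

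Dlk1 (Entrez 13386, chromosome 12), a membrane ligand related to those of Notch, and Plagl1 (Entrez 22634, chromosome 10), a zinc finger transcription factor, are both paternally expressed. The Dlk1 probe had a lowest detection p of 0.271 over the 22 arrays. The 3 Plagl1 probes had lowest detection p of 0.422, 0.34 and 0.395. Neither transcript passed the detection threshold on any array, which does not show that it was absent.

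Counting all comparisons of 2 groups with 3 arrays each, 13 of 96 comparisons of the 8 genes had no overlap, against 10.4% of such comparisons over all genes. Mest gave 5 of the 13, Phlda2 3, Igf2r 3 and Peg10 2. The CD1 KSOM array, which has no replicate and was not tested, lay within the CD1 in vivo range for the brightest probe of 8 of 8 genes.

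As a group, the imprinted genes were described by their counts and medians beside those of all genes. Against in vivo over both strains, 7 of the 8 genes were higher in HTF, with a median log2 difference of 0.35, where 51.4% of all genes were higher with a median of 0.01. The median was 0.35 for the 4 paternally expressed genes and 0.41 for the 4 maternally expressed ones. Under median scaling, which moved the median of all genes to 0.202 in this comparison, Igf2r turned from -0.06 to 0.20. In ISM1 5 of 8 genes were higher, with a median of 0.19, against 50.7% of all genes. Under median scaling, with the median of all genes at 0.122 in this comparison, Igf2 and Phlda2 turned to 0.06 and 0.08. Between HTF and ISM1 6 of 8 were higher in HTF, with a median of 0.15, against 50.8% of all genes. Between CD1 and B6 over HTF, ISM1 and in vivo 5 of 8 were higher in CD1, with a median of 0.03, against 51.5% of all genes. The comparisons of HTF and of ISM1 with in vivo share the in vivo arrays.

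**Figure D4:**
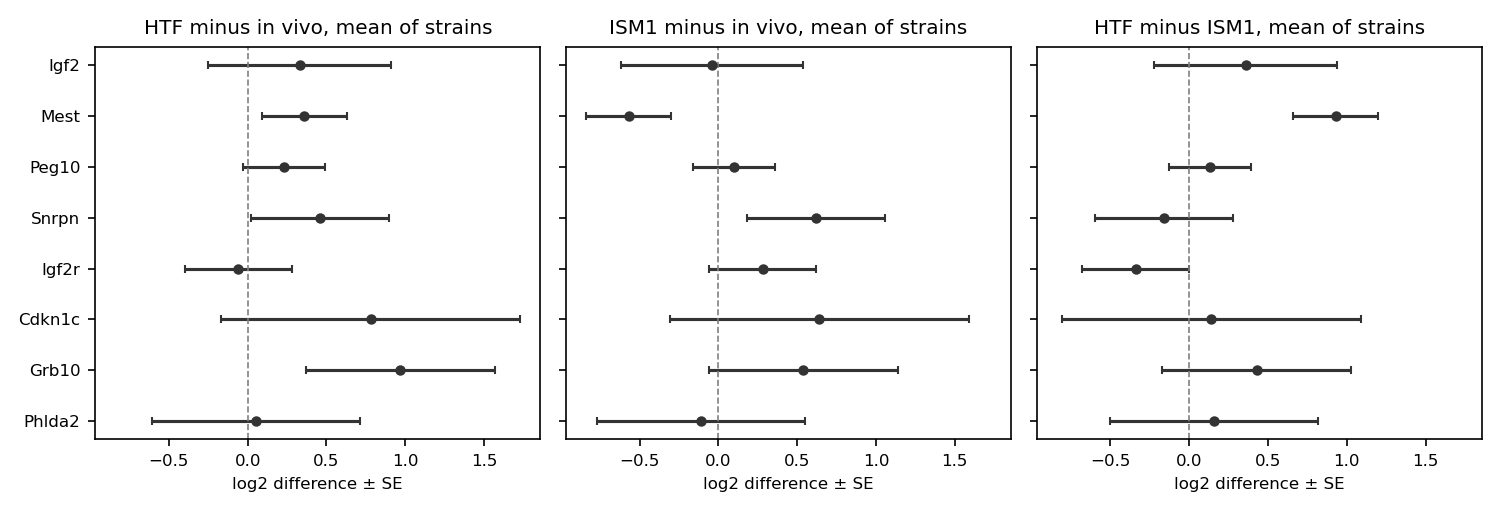
Log2 difference (horizontal axis) of the 8 imprinted genes (rows) for HTF minus in vivo, ISM1 minus in vivo and HTF minus ISM1, each averaged over B6 and CD1. Points are differences and bars 1 SE. Mest is the gene farthest from 0 relative to its error, at 0.93 ± 0.27 for HTF minus ISM1.

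A further list held 53 other imprinted genes of the mouse. Of these, 13 had no named probe, 22 had probes that failed the detection rule, among them Peg3, and 18 were measured, 7 paternally and 11 maternally expressed. Of the 18, 0 were called in any comparison. For HTF against in vivo over both strains 11 of 18 were higher, with a median of 0.20, where 51.4% of all genes were higher. In limma 3 of the 18 had an unadjusted p under 0.05, as did 771 of all 9345 genes. The highest were Cd81, a tetraspanin membrane protein, at 1.81 ± 0.70 with an adjusted p of 0.486 in limma, and Ube3a, a ubiquitin ligase, at 0.99. The lowest were Pon2, a paraoxonase, at -0.79, and Inpp5f, an inositol phosphatase, at -0.72. For HTF against ISM1, where Mest was highest, 13 of 18 were higher, against 50.8% of all genes. H13, an intramembrane protease, was at 0.68 and Gnas, the stimulatory G protein alpha subunit, at -0.82. Between CD1 and B6 Inpp5f was higher by 1.26, with an unadjusted p of 0.00228 and an adjusted p of 0.186 in limma.

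Several of the genes varied widely within groups. The pooled within-group SD was 1.83 for Cdkn1c, as large as or larger than that of 99.6% of all genes, 1.27 for Phlda2 (96.1%), 1.14 for Grb10 (93.9%) and 1.10 for Igf2 (93%), where the median gene had 0.54. It was 0.81 for Snrpn (79.9%), 0.62 for Igf2r (61.2%), 0.46 for Mest (38.3%) and 0.44 for Peg10 (34.5%). Against the genes within 0.5 of its own mean level, Cdkn1c had a larger SD than 99.4%, Snrpn than 96.6%, Phlda2 than 90.7%, Igf2 than 86.6% and Grb10 than 86.0%. The shares were 70.6% for Igf2r, 57.7% for Peg10 and 9.81% for Mest. CD1 in vivo was the most spread group for Igf2, Mest, Igf2r, Cdkn1c, Grb10 and Phlda2, with ranges of 1.73 for Mest to 6.07 for Cdkn1c. Phlda2 and Igf2 had ranges there of 4.66 and 3.93. The CD1 in vivo arrays were also the least alike across all genes, with a mean correlation of 0.861. How many of all genes were most spread in that group was not counted. Replicate 1 of CD1 in vivo had the lowest median raw intensity of all arrays, 90.6, before quantile normalization.

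Among the 28 pairs of the 8 genes, Igf2 and Cdkn1c ran against each other over the 22 arrays, with r = -0.69 and rho = -0.68 (permutation p of 0.00042 and 0.0007, adjusted over the pairs 0.0118 and 0.0196). It was the only pair with an adjusted p under 0.05. After normalization CD1 in vivo replicate 1 had the lowest Igf2, 6.19, and the highest Cdkn1c, 11.98. Its raw Cdkn1c intensity, 1640, was below those of B6 ISM1 replicate 1 (1750, normalized to 10.22) and CD1 ISM1 replicate 2 (2080, normalized to 11.33). CD1 in vivo replicate 2 had the highest normalized Igf2, 10.12, with Cdkn1c at 6.0, near background (deposited detection p of 0.0276). Without these 2 CD1 in vivo arrays r was -0.52 (permutation p of 0.0194). It was -0.74 within B6 (n = 12), -0.68 within CD1 (n = 10) and -0.79 after group means were removed. Of all other genes, 3.4% correlated with Igf2 at least as strongly in either direction, and 2.91% with Cdkn1c. On median-scaled values r between Igf2 and Cdkn1c was -0.45. Cdkn1c and Phlda2 gave r = 0.59 (rho = 0.47), with adjusted permutation p of 0.0524 and 0.229.

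Marker lists moved with both genes. The mean of 9 measured of 10 primitive endoderm markers correlated with Cdkn1c at r = -0.86 (rho = -0.75) and with Igf2 at r = 0.82 (rho = 0.78). The mean of 10 of 10 trophectoderm markers correlated with Cdkn1c at r = -0.66 (rho = -0.65) and with Igf2 at r = 0.80 (rho = 0.77). The adjusted permutation p of r, over 32 relations of the 8 genes with 3 marker lists and the median array intensity, were 0.000107 for the first, second and last of these and 0.00832 for the trophectoderm list with Cdkn1c. Those of rho were 0.00117, and 0.0123 for the trophectoderm list with Cdkn1c. Igf2r with the primitive endoderm list gave r = -0.57 and rho = -0.54 (adjusted p of 0.0349 and 0.0669). The other 27 relations, including all those of Mest, had an adjusted p of r of 0.05 or more. Among them, Igf2 and the median array intensity gave r = 0.48 (rho = 0.40), with adjusted permutation p of 0.104 and 0.191. That r was 0.77 after group means were removed, 0.51 in B6 and 0.76 in CD1. Without CD1 ISM1 replicate 3 and CD1 in vivo replicate 1, the arrays farthest in intensity, it was 0.13. The part of array brightness in the Igf2 levels was not tested. On median-scaled values r was -0.44 for the trophectoderm list with Cdkn1c and -0.16 (permutation p of 0.486) for the primitive endoderm list with Igf2r.

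These relations had the same sign in both strains. Cdkn1c and the primitive endoderm list gave r = -0.82 in B6 (n = 12) and -0.88 in CD1 (n = 10), and Igf2 and the trophectoderm list 0.75 and 0.91. Leaving out the 2 arrays farthest from the median of the list gave -0.78 for Cdkn1c with the primitive endoderm list, -0.70 with the trophectoderm list, 0.70 for Igf2 with the primitive endoderm list and 0.73 with the trophectoderm list, and -0.55 for Igf2r. The trophectoderm list averaged 9.34 on CD1 in vivo replicate 1, 9.43 on B6 in vivo replicate 3 and 9.31 on CD1 ISM1 replicate 3, and 11.80 on B6 in vivo replicate 2 and 11.58 on CD1 ISM1 replicate 1. The 2 lists themselves ran together (r = 0.84, rho = 0.82, permutation p of 1e-05), so their relations with a gene are not separate. Many genes shared this axis: 0.868% of all genes correlated with the primitive endoderm list at least as strongly as Cdkn1c, 1.94% as Igf2 and 17.8% as Igf2r. For the trophectoderm list the shares were 1.69% for Igf2 and 8.45% for Cdkn1c. In RNA from whole blastocysts, fewer cells of a type and less RNA per cell cannot be told apart, and the part of either list in the levels of Igf2 and Cdkn1c was not tested.

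**Figure D5:**
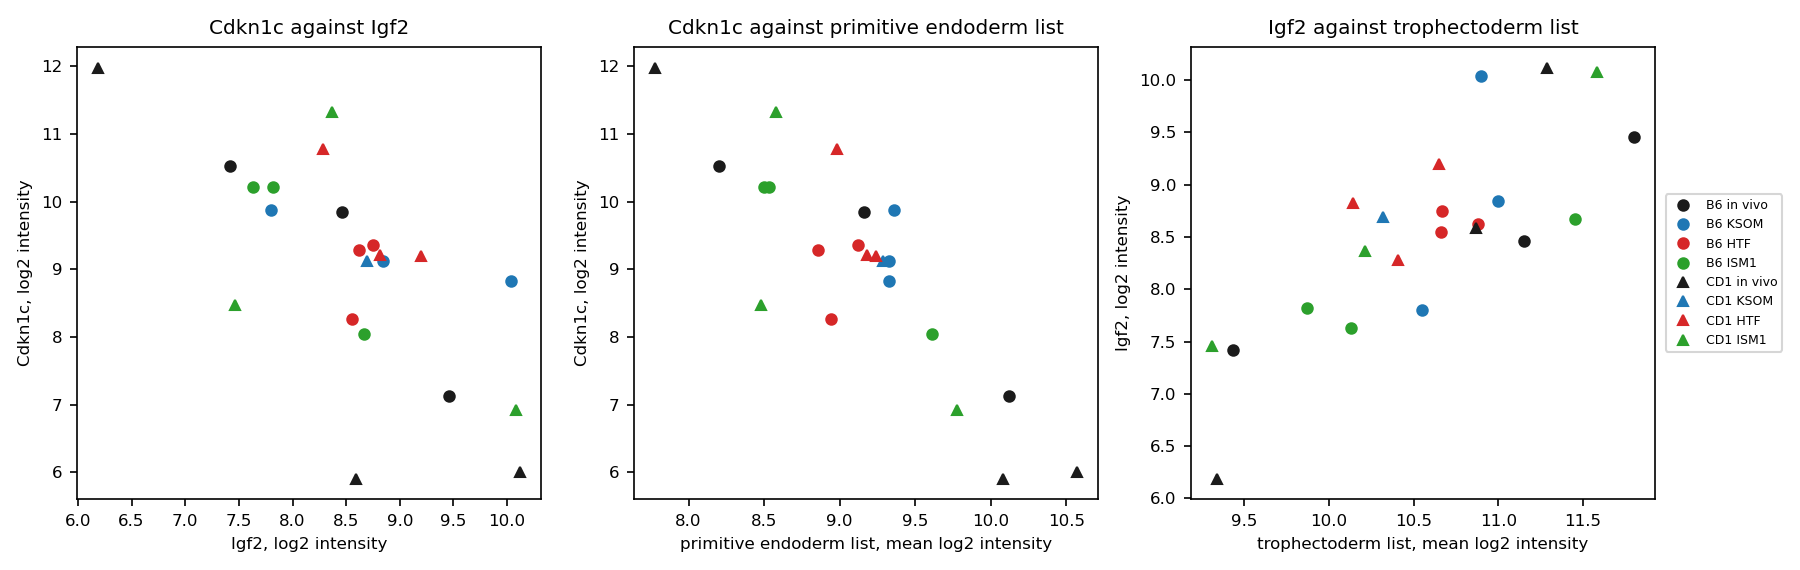
Left, Cdkn1c against Igf2; middle, Cdkn1c against the mean of the primitive endoderm markers; right, Igf2 against the mean of the trophectoderm markers, all in log2 intensity. Each point is 1 of 22 arrays, circles B6 and triangles CD1, coloured by medium. Cdkn1c is lower to the right in the left and middle panels (r = -0.69 and -0.86) and Igf2 is higher where the trophectoderm list is higher (r = 0.80).

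Genes whose level ran most like that of an imprinted gene over the 22 arrays were named by Pearson's r, the 3 highest for each. For Mest they were Ppp3cc (r = 0.84), a calcineurin catalytic subunit, Pqlc3 (0.79) and Cd79b (0.79), a part of the B cell receptor. For Cdkn1c they were Igdcc4 (0.85), Tnfrsf10b (0.84), a death receptor, and Laptm4a (0.83). For Igf2 they were Acaa1a (0.88), a peroxisomal thiolase, Fndc10 (0.88) and Nuak1 (0.87), a kinase related to AMPK. For Igf2r they were Cdkn2b (0.82), a cyclin-dependent kinase inhibitor, Shisa2 (0.82) and Hspa2 (0.81), and for Phlda2 Hsd17b1 (0.83), Hspb1 (0.81) and Gcdh (0.80). For Snrpn the highest was Cox10 (0.79), for Grb10 Nfyb (0.79) and for Peg10 Ccdc70 (0.77). These genes were picked as the highest among 9345, so their r values are descriptions and carry no test.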

How the data were processed

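Total RNA (150 ng, amplified and biotin-labelled over 12 h of in vitro transcription, per the labels' protocols) was hybridized to 22 arrays. The table deposited by the authors holds linear bead intensity values per probe, not normalized between arrays, and beside each a detection p-value, as deposited, whose method is not stated. A second deposited table holds log2 values, which the authors had quantile-normalized, since the sorted values of any 2 arrays differ by at most 0.000774. BeadStudio 3.2, RMA and lumi are named per the submitters' processing notes, without roles or order. The genome build is not given in the sources used here.

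From the intensities, neqc of limma 3.58.1 in R 4.3.3 (offset 16, detection p-values in place of control probes) gave the log2 levels. The detection rule (p under 0.05, 3 arrays or more) kept 12992 of 25697 probes. Each of 9345 genes was represented by its brightest kept probe, and other probes of an imprinted gene were tested in a fit over all kept probes. All arrays entered 1 limma fit with a mean per group, 8 in all (lmFit, eBayes, 14 residual and 3.51 prior degrees of freedom), two-sided, with a call at a Benjamini-Hochberg adjusted p under 0.05. No slide or date is given, so batches could not be tested. Replicate numbers showed no pairing of arrays on average: same-numbered arrays of different groups deviated together with a mean r of -0.02 (63 pairs, -0.72 to 0.52), other-numbered ones with 0.01. Deviations within a group cancel out, so these means are not independent of each other. Correlations over arrays used 100000 two-sided permutations in scipy 1.17.1. The procedure was tested on simulated data for HTF against ISM1 over both strains. It recovered 42 of 100 genes changed by a log2 of 1 and 86 of 100 changed by 2, with 9 false calls. The simulated noise was normal and independent for each gene and array, and the change was the same in both strains. On the real arrays many genes ran together, so these counts need not hold for them.

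The imprinted genes, the gene lists and the comparisons were chosen with earlier results of these data known. Every measured gene of the 10 is named, of the other imprinted genes those highest and lowest in a comparison, and for likeness the 3 highest r. Promoter windows came from a RefSeq table of build GRCm38.p6. The number of arrays limits the precision.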

Additional observations from a re-analysis of the deposited data

How the results depend on the processing

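The count of imprinted genes called, 0 in each of the 18 comparisons, moved with array quality weights alone: it became 1 for B6 ISM1 against in vivo (Igf2r, 0.90, adjusted p of 0.0333 in limma), 1 for B6 HTF against ISM1 (Mest, 1.00, adjusted p of 0.0134) and 1 for HTF against ISM1 over both strains (Mest, 0.91, adjusted p of 0.0196), in fits that called 1329, 669 and 315 genes. The other 327 recounts gave 0, among them the fit with a replicate block, which called 0 in each comparison. The slide as a block was not run, since no slide is given. The Mest difference between HTF and ISM1 over both strains stayed between 0.71 and 1.06 in 22 settings, with adjusted p of 0.0196 to 0.97. Several uncalled differences over both strains changed sign, and the cause was not tested. Median scaling turned HTF minus in vivo to 0.20 for Igf2r, and ISM1 minus in vivo to 0.06 for Igf2 and 0.08 for Phlda2. Array quality weights turned HTF minus in vivo to 0.12 for Igf2r, ISM1 minus in vivo to -0.11 for Peg10 and 0.54 for Phlda2, and HTF minus ISM1 to -0.43 for Cdkn1c and -0.22 for Phlda2. With each array left out in turn, HTF minus in vivo ranged from 0.27 to 1.78 for Cdkn1c and 0.42 to 1.26 for Grb10 without a change of sign, and from -0.20 to 0.78 for Igf2, -0.33 to 0.25 for Igf2r, -0.60 to 0.57 for Phlda2 and -0.03 to 0.81 for Snrpn. ISM1 minus in vivo ranged from -0.01 to 0.83 for Grb10, -0.56 to 0.42 for Igf2, -0.08 to 0.26 for Peg10 and -0.75 to 0.41 for Phlda2. HTF minus ISM1 ranged from -0.36 to 0.75 for Cdkn1c, -0.16 to 0.52 for Phlda2 and -0.33 to 0.04 for Snrpn. For the correlations, the deposited log2 values, median scaling and leaving out the 3 CD1 in vivo arrays were tried after seeing the data: 17 of 18 recalculated r values kept their sign and a permutation p under 0.05, the exception being Igf2r with the primitive endoderm list on median-scaled values. Signal near background limits Peg10, detected on 11 of 22 arrays. It also limits Cdkn1c on CD1 in vivo replicates 2 and 3, with deposited detection p of 0.0276 and 0.015.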
